A study of Mus musculus with 20 samples.

Results

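Tendon of Igf1r-targeted mice, collected 7 days after a growth stimulus, was compared with resting control tendon, 4 libraries against 4 of the 20 in the series. The 8 libraries were taken by their titles (KO_OL_Day7 and WT_NOC_Day0, replicates 1 to 4). The comparison itself was proposed with earlier results of these data known. RNA was sequenced from the plantaris tendon, a small tendon of the mouse hindlimb. The Igf1r-targeted mice were ScxCreERT2+/+ IGF1Rflox/flox: they carried, on both alleles, a Cre recombinase that tamoxifen activates and that is expressed where the tendon gene Scx is active, and they received tamoxifen and the growth stimulus. The resting controls were ScxCreERT2-/- IGF1Rflox/flox, without recombinase, tamoxifen or stimulus. Every group therefore carried the flox sites in Igf1r, while recombinase, tamoxifen and stimulus all differed between the 2 groups and cannot be told apart in this contrast. Where a direct comparison at the same day was needed, 4 control day 7 libraries were used (ScxCreERT2-/- IGF1Rflox/flox, with tamoxifen and 7 days of stimulus), which differ from the Igf1r-targeted day 7 libraries by the recombinase alone as far as the labels say. A resting Igf1r-targeted group was not analysed here. The labels do not give the animals' age or sex, and nothing in them states that the libraries of a group came from different mice. The p-values thus describe the scatter among libraries, part of which may be technical.

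Tendon is built by tenocytes, fibroblasts that secrete type I collagen and a set of smaller proteoglycans and glycoproteins, and that are marked by the transcription factors Scx and Mkx and by tenomodulin (Tnmd). Insulin-like growth factor 1, made in liver and locally in many tissues, binds the receptor encoded by Igf1r, which signals through phosphoinositide 3-kinase, Akt and mTOR to protein synthesis and growth and which holds back the FoxO transcription factors. A growing tendon adds new matrix around the existing tissue, with dividing progenitor cells and infiltrating macrophages.

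The libraries held 39818138 to 63522834 counts in the Igf1r-targeted group and 32254411 to 58891571 at rest. Levels are given in CPM, a counts-per-million-counts unit scaled for library composition. Tendon markers were present in every library: Thbs4 stood at 6151 to 7836 CPM at rest and 5870 to 6970 in the Igf1r-targeted libraries, and Tnmd at 158 to 212 and 177 to 249. Transcripts of skeletal muscle fibres made up 3.52 to 8.12% of counts at rest (mean 6.27% ± 2.08, SD, n = 4) and 0.708 to 1.69% in the Igf1r-targeted day 7 libraries (1.11% ± 0.427). The groups did not overlap (exact two-sided permutation test, p = 0.0286, the smallest that 4 against 4 libraries can give, 0.0343 after Benjamini-Hochberg adjustment over 12 tests). In control day 7 tendon the muscle share was 0.0488 to 0.312%. Mitochondrially encoded mRNAs fell from 6.17% ± 1.36 to 1.23% ± 0.110 of counts, and the 21 collagens of the collagen list rose from 3.55% ± 0.361 to 15.6% ± 0.900, each with the same exact permutation p of 0.0286. These are bulk samples, so fewer cells of a type and less RNA per cell cannot be told apart. Igf1r-targeted day 7 replicate 2 stood apart in markers of skin: 16 keratinocyte genes took 0.0925% of its counts, and the keratin Krt14 reached 376 CPM there against 0.171, 4.72 and 0.168 CPM in replicates 1, 3 and 4. Results that rest on this library are given with and without it.

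**Figure D1:**
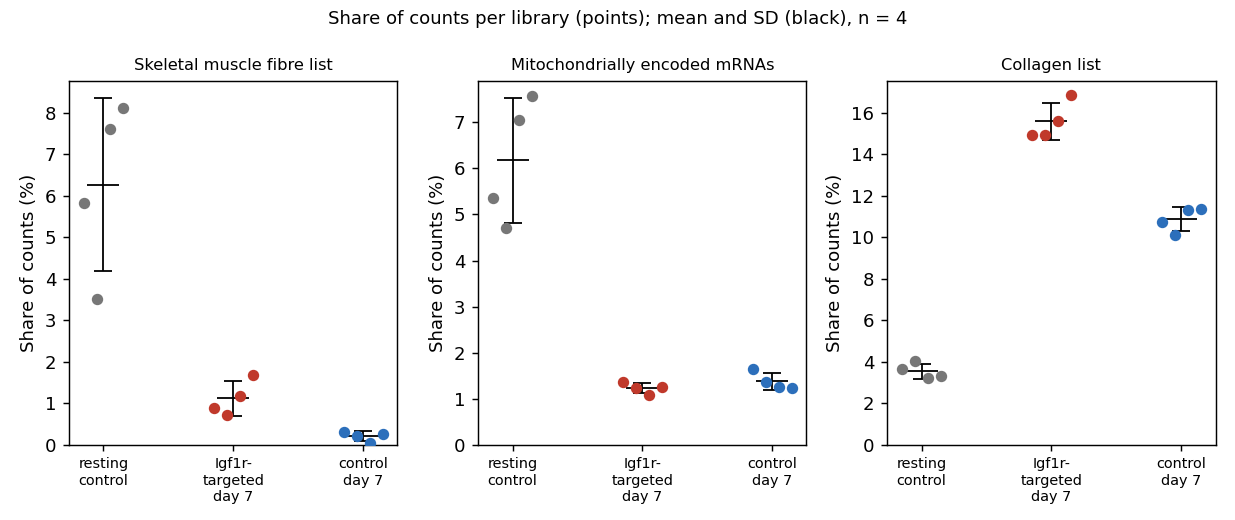
Share of all counts (vertical axis, %) taken by the skeletal muscle fibre list, the mitochondrially encoded mRNAs and the collagen list in each library of resting control, Igf1r-targeted day 7 and control day 7 tendon. Points are libraries, and black marks give the mean and SD of 4 libraries. The collagen share lay between 14.9 and 16.8% in the Igf1r-targeted libraries and between 3.24 and 4.02% at rest.

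Igf1r itself (chr7:67952827-68233668, plus strand, mm10) was only slightly lower in the targeted tendons. Its level was 63.1, 70.9, 60.5 and 56.3 CPM at rest and 55.0, 49.3, 49.0 and 52.0 CPM in Igf1r-targeted day 7 tendon. All 4 targeted libraries lay below all 4 resting ones. The log2 fold change was -0.29 ± 0.08 (SE; edgeR quasi-likelihood test, adjusted p = 0.00495). Control day 7 libraries, which lack the recombinase, held 46.0, 50.5, 49.3 and 50.8 CPM, and the difference between the day 7 groups was not larger than the spread between libraries (51.3 ± 2.81 against 49.1 ± 2.17 CPM, exact two-sided permutation p = 0.314). Gene-level counts cover the whole gene, cells that never express Scx included, and do not measure recombination of the flox sites.

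Scx (chr15:76457452-76459458, plus strand), whose regulation drives the recombinase in these mice, was by contrast far higher. It stood at 40.8, 45.8, 35.5 and 31.4 CPM at rest, at 593, 1153, 557 and 639 CPM in Igf1r-targeted day 7 tendon, and at 57.1, 52.8, 44.8 and 47.2 CPM in control day 7 tendon. The targeted libraries did not overlap with either other group, and replicate 2 was the highest. The log2 fold change was 4.26 ± 0.31 against rest (adjusted p = 3.34e-09) and 3.87 ± 0.30 against control day 7 (adjusted p = 3.83e-07). Scx lies within the span of Bop1 (chr15:76452989-76477277, minus strand), a ribosome biogenesis gene, on the opposite strand. Bop1 rose as well, from 41.9, 43.7, 40.2 and 43.3 CPM to 224, 345, 209 and 264 CPM (log2 2.62 ± 0.23, adjusted p = 2.54e-08). Because the strand setting of the counts is not given in the sources used here, reads of these genes cannot be told apart.

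Of 18918 genes tested, 10917 (57.7%) differed between Igf1r-targeted day 7 and resting control tendon at an adjusted p below 0.05. Higher genes numbered 5564 (29.4%) and lower genes 5353 (28.3%), of which 2398 (12.7%) and 2542 (13.4%) changed at least 2-fold. The median log2 fold change over all genes tested was 0.008, and the median absolute change 0.516. For 10616 genes (56.1%) the libraries of the 2 groups did not overlap. Because 57.7% of all genes were called, a gene list is described below by its counts and median beside these shares. In the authors' deposited table for the same comparison, 4452 genes were higher and 4301 lower at their false discovery rate below 0.05. Of these, 8750 were tested here and 8540 were called in both, with 0 of opposite sign.

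**Figure D2:**
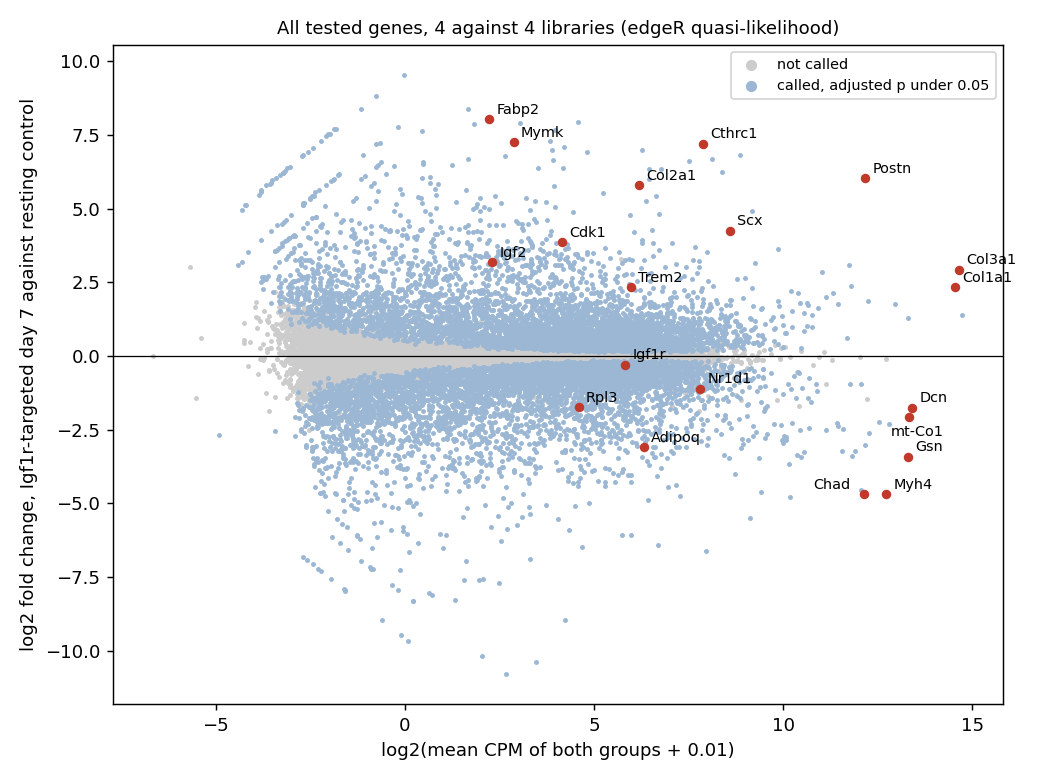
Log2 fold change of Igf1r-targeted day 7 against resting control tendon (vertical axis) for each of the 18918 genes tested, against the log2 of the mean CPM of the 8 libraries with 0.01 added (horizontal axis). Blue points were called at an adjusted p below 0.05, grey points were not, and red points are named genes, among them Cthrc1 at 7.21, Scx at 4.26 and Chad at -4.69.

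The 12 genes named for the highest fold changes (at least 5 CPM in the higher group, no overlap, predicted genes and pseudogenes left out) were Fabp2, Chrnd, Igfn1, Mymk, Cthrc1, Hal, Cxcl5, Tnni1, C1qtnf3, Tnn, Chrng and Tnnt2. Cthrc1, a secreted glycoprotein of injured and remodelling tissue, stood at 3.33, 3.22, 3.62 and 2.38 CPM at rest and at 536, 496, 376 and 454 CPM in the Igf1r-targeted libraries. That is a log2 fold change of 7.21 ± 0.23 (adjusted p = 4.14e-14), with no library near the other group. The secreted protein C1qtnf3 rose from 8.08 ± 0.890 to 915 ± 224 CPM (log2 6.82 ± 0.37), and tenascin N (Tnn) from 5.33 ± 1.80 to 555 ± 191 CPM (log2 6.69 ± 0.43). The neutrophil-attracting chemokine Cxcl5 rose from 0.212 ± 0.124 to 29.4 ± 23.7 CPM (log2 6.99 ± 1.12, and 6.32 without Igf1r-targeted replicate 1). Chrnd and Chrng, subunits of the acetylcholine receptor, rose by log2 7.88 ± 1.18 and 6.67 ± 0.87, and Mymk, which fuses myoblasts, by 7.26 ± 0.91. The slow and cardiac troponins Tnni1 and Tnnt2 rose by 6.94 ± 0.92 and 6.66 ± 0.89, and the muscle gene Igfn1 by 7.30 ± 1.28. Without Igf1r-targeted replicate 4, the values of Chrnd and Igfn1 were 7.21 and 6.40. In all 6 muscle genes the Igf1r-targeted libraries varied widely: Mymk held 4.93, 8.47, 16.2 and 28.7 CPM, while the resting libraries held 0.0651 to 0.125 CPM.

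Fabp2, a fatty acid binding protein best known from intestine, and Hal, the histidine ammonia-lyase of liver and skin, were the other 2. Fabp2 held 0.0306, 0.0163, 0.0416 and 0.0481 CPM at rest and 8.13, 14.1, 6.41 and 8.79 CPM in Igf1r-targeted tendon (log2 8.04 ± 0.52, adjusted p = 4.04e-10). Hal held 0.367, 1.07, 0.541 and 2.74 CPM at rest and 60.1, 251.2, 235 and 67.2 CPM in Igf1r-targeted tendon (log2 7.01 ± 1.10). Its log2 fold change was 6.67 without Igf1r-targeted replicate 2 and 7.77 without resting replicate 4. In control day 7 tendon Fabp2 held 0 to 0.053 CPM and Hal 0.462 to 0.902 CPM, all below the Igf1r-targeted libraries.

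The 12 genes named by the same rule for the strongest falls were Krt2, Mrgprg, Odf3l2, Fa2h, Serpina3b, Serpina3j, Scd3, Lrrc38, Mylk4, Ostn, Scn4b and Aqp4. The epidermal keratin Krt2 had 2298 counts over the resting libraries (1.62, 8.08, 1.85 and 39.9 CPM) and 1 count over the Igf1r-targeted ones, a ratio of depth-scaled counts of 2727 (95% interval 489 to 107770, counting error only). Mrgprg, a receptor of the Mas-related family, had 3861 counts at rest and 3 counts in the Igf1r-targeted libraries, a ratio of 1527 (522 to 7410). Odf3l2 fell from 37.8 ± 14.4 to 0.0775 ± 0.0537 CPM (log2 -8.95 ± 0.76). Fa2h, which makes 2-hydroxylated sphingolipids, fell (log2 -7.72 ± 1.02), as did the stearoyl-CoA desaturase Scd3 (log2 -6.95 ± 0.70). The protease inhibitors Serpina3b and Serpina3j fell (log2 -7.60 ± 0.98 and -7.56 ± 0.99, the latter -8.63 without Igf1r-targeted replicate 3). In Lrrc38, Mylk4, Ostn, Scn4b and Aqp4, most of them genes of muscle fibres, the log2 fold changes lay between -6.27 (Aqp4) and -6.88 (Lrrc38). Ostn, the muscle-secreted peptide musclin, for example, fell from 51.1 ± 9.59 to 0.579 ± 0.142 CPM. The muscle share of counts fell with these genes, from 3.52 to 8.12% at rest to 0.708 to 1.69%, and its part in them was not tested.

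By the amount of RNA that moved, matrix genes led the rise. Col3a1 held 5821, 6696, 5800 and 5544 CPM at rest and 41765, 44582, 48691 and 46705 CPM in Igf1r-targeted tendon (log2 2.93 ± 0.15, adjusted p = 1.05e-11). Periostin (Postn), a glycoprotein of loaded and healing connective tissue, held 141, 114, 108 and 191 CPM at rest and 10911, 8191, 8735 and 8542 CPM after (log2 6.04 ± 0.26, adjusted p = 1.71e-12). Of the tissue's abundant resting transcripts, gelsolin (Gsn), which severs actin filaments, fell from 19076, 19928, 16895 and 17504 CPM to 1402, 1742, 2206 and 1536 CPM (log2 -3.41 ± 0.26). Chondroadherin (Chad), a cell-binding leucine-rich protein of cartilage and tendon, fell from 9382, 10207, 7000 and 7942 CPM to 154, 348, 492 and 344 CPM (log2 -4.69 ± 0.41, adjusted p = 3.95e-08). Myocilin (Myoc) fell from 8123 ± 1435 to 352 ± 227 CPM (log2 -4.53 ± 0.62), and decorin (Dcn), which binds collagen fibrils, from 16754 ± 2595 to 4999 ± 418 CPM (log2 -1.75 ± 0.16). In each of these the groups were separate.

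**Figure D3:**
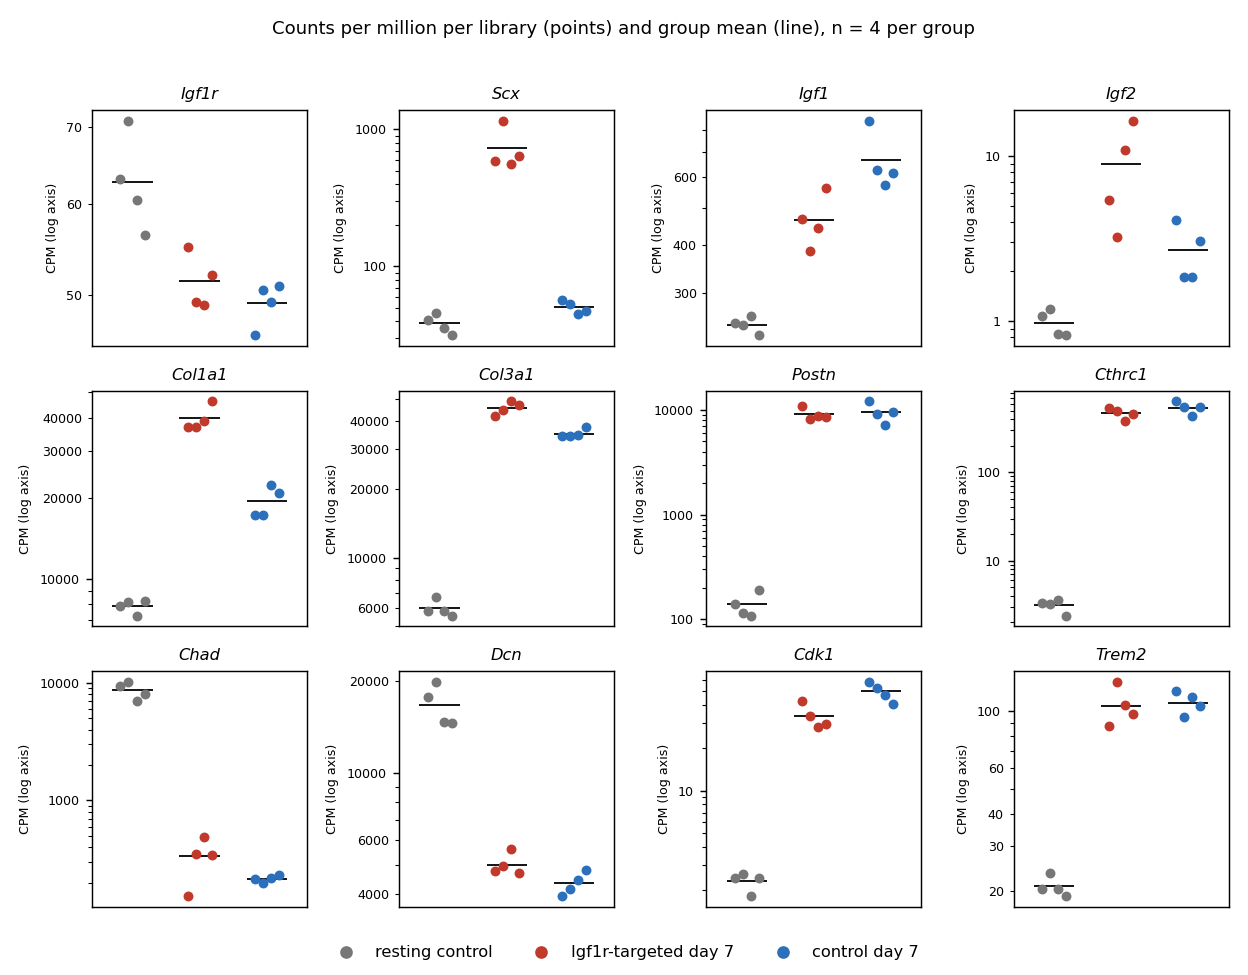
CPM per library (points, log axis, 1 panel per gene) in resting control, Igf1r-targeted day 7 and control day 7 tendon, with the mean of 4 libraries as a line. Scx is high in the Igf1r-targeted group alone among these 3 groups, Igf1r spans 46.0 to 70.9 CPM over all 12 libraries, and Chad lies at 7000 to 10207 CPM at rest and at 154 to 492 CPM in the Igf1r-targeted group.

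The IGF system changed in both directions. Of 19 tested ligands, receptors, binding proteins and proteases, 8 were higher and 9 lower (42.1% and 47.4%, against 29.4% and 28.3% of all genes tested). The median log2 fold change was -0.14, or 0.02 without resting replicate 2. Among the ligands, Igf1 held 250, 247, 261 and 232 CPM at rest and 468, 385, 443 and 562 CPM in Igf1r-targeted tendon (log2 0.91 ± 0.16, adjusted p = 9.34e-05). Control day 7 libraries were higher still, at 842, 628, 573 and 616 CPM, and the direct difference between the day 7 groups was -0.52 ± 0.16 (adjusted p = 0.0389). That difference was lost when any of 6 libraries was left out (adjusted p from 0.0574 to 0.134 without control day 7 replicate 1, 2 or 4 or Igf1r-targeted replicate 1, 2 or 3). Igf2 rose from 1.07, 1.19, 0.833 and 0.818 CPM to 5.40, 3.25, 10.9 and 16.4 CPM (log2 3.19 ± 0.52, adjusted p = 4.71e-05). Among the receptors, Insr fell from 77.9 ± 7.32 to 50.5 ± 1.70 CPM (log2 -0.63 ± 0.07), while Igf2r, which clears IGF2, rose from 120 ± 4.001 to 237 ± 13.2 CPM (log2 0.98 ± 0.09). Pappa, a protease that frees IGF from binding protein 4, rose from 2.87 ± 0.600 to 23.4 ± 10.7 CPM (log2 3.03 ± 0.36). Igfals, which holds IGF in a circulating complex, fell from 5.96 ± 1.53 to 0.698 ± 0.216 CPM (log2 -3.10 ± 0.35). Igfbp2, Igfbp4, Stc1 and Htra1 were the other higher members.

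Downstream of the receptor, 9 of 30 PI3K, Akt and mTOR genes were higher and 11 lower (median log2 -0.12). These shares, 30% and 36.7%, compare with 29.4% and 28.3% of all genes tested. Grb10, an adaptor that dampens insulin and IGF receptor signalling, rose from 79.2 ± 6.50 to 389 ± 38.3 CPM (log2 2.30 ± 0.11). Sesn2, a stress-induced inhibitor of mTOR complex 1, rose from 8.20 ± 0.678 to 26.1 ± 0.893 CPM (log2 1.67 ± 0.14), and in the direct comparison it was also higher than in control day 7 tendon (log2 1.09 ± 0.14, adjusted p = 6.63e-05). The regulatory subunit Pik3r1 fell from 311 ± 26.3 to 120 ± 10.6 CPM, and the subunit Pik3r3 rose from 8.95 ± 0.965 to 30.8 ± 6.78 CPM. FoxO-responsive genes were mostly lower: 15 of 21 fell and 2 rose (median log2 -0.92). Txnip, an inhibitor of glucose uptake, fell from 810 ± 48.0 to 261 ± 49.9 CPM, Bcl6 from 173 ± 26.7 to 44.1 ± 5.26 CPM, the mitophagy kinase Pink1 from 488 ± 92.7 to 122 ± 7.73 CPM, and Foxo4 itself from 104.6 ± 21.9 to 39.5 ± 3.78 CPM. The higher members were Gadd45a and Angptl4, and the latter, picked once its values were known, went from 18.9 ± 5.83 to 87.9 ± 28.4 CPM. Control day 7 tendon against rest gave the same counts for this list, 15 lower and 2 higher (median log2 -1.15). Directly against control day 7, 3 of the 21 were higher (14.3%, against 9.39% of all genes tested) and 0 lower. Several of the genes named above are also abundant in muscle fibres, whose share of counts fell beside them. The part of that share in these changes from rest was not tested.

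Tenocyte genes moved apart from one another. Of 20 transcription factors and markers, 5 were higher (Scx, Egr2, Col1a1, Col1a2 and Sox9) and 9 lower (median log2 -0.42). These shares, 25% and 45%, compare with 29.4% and 28.3% of all genes tested. Mkx, which maintains mature tendon, fell from 51.6 ± 6.60 to 25.8 ± 2.90 CPM (log2 -1.001 ± 0.13). Among the fibril-associated proteins, cartilage oligomeric matrix protein (Comp) held 4700, 5582, 3914 and 4319 CPM at rest and 1707, 2630, 2631 and 2624 CPM in Igf1r-targeted tendon (log2 -0.95 ± 0.21, adjusted p = 0.000712). Fibromodulin (Fmod) held 5226, 6208, 5598 and 5563 CPM at rest and 2782, 2932, 2777 and 3328 CPM after (log2 -0.94 ± 0.17, adjusted p = 0.000131). In both genes the groups were separate. Control day 7 libraries were lower again, at 710 to 1226 CPM for Comp and 1227 to 1694 CPM for Fmod, so the Igf1r-targeted libraries lay between rest and control day 7 (direct difference log2 1.27 ± 0.21 and 1.01 ± 0.17, adjusted p = 0.000814 and 0.00111). The levels of Tnmd and Thbs4 did not pass the test (log2 0.30 ± 0.27 and -0.10 ± 0.13). Against control day 7, where 9.39% of all genes tested were higher and 5.42% lower, 10 of the 20 tenocyte genes were higher and 0 lower, and 8 to 10 were higher when 1 library was left out.

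Collagen genes rose together. Of 21 collagens, 16 (76.2%) were higher and 1, Col24a1, was lower, with a median log2 fold change of 2.12. The call of Col24a1 was lost without any of 4 single libraries. Col1a1 (chr11:94936224-94953042, plus strand), the main fibrillar chain, held 7861, 8155, 7258 and 8268 CPM at rest and 37105, 37050, 39181 and 46275 CPM in Igf1r-targeted tendon (log2 2.34 ± 0.26, adjusted p = 2.93e-07). Control day 7 libraries lay between, at 17348, 17362, 22448 and 20939 CPM, and the direct difference was 1.03 ± 0.25 (adjusted p = 0.0107). The type V chain Col5a1, which starts fibril assembly, rose from 730 ± 52.0 to 6173 ± 424 CPM (log2 3.08 ± 0.19) and was higher than in control day 7 tendon too (log2 0.96 ± 0.18, adjusted p = 0.00203). Col1a2 rose by log2 1.39 ± 0.19, Col5a2 by 2.38 ± 0.14, Col6a3 by 2.86 ± 0.16 and the short-chain Col8a1 by 3.72 ± 0.23. Against control day 7, 15 of 21 collagens were higher (71.4%, against 9.39% of all genes tested) and 0 lower. That count ranged from 10 (without control day 7 replicate 2 or Igf1r-targeted replicate 4) to 14 when 1 library was left out.

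The machinery that modifies collagen rose with its substrate: 18 of 21 genes of collagen modification and folding were higher and 2, P3h2 and Colgalt2, were lower (median log2 1.18). The prolyl hydroxylase subunit P4ha3 rose from 10.1 ± 1.09 to 145 ± 10.8 CPM (log2 3.85 ± 0.12, adjusted p = 4.02e-14), prolyl 3-hydroxylase 1 (P3h1) from 51.0 ± 2.66 to 228 ± 23.0 CPM, the collagen chaperone Serpinh1 from 408 ± 41.7 to 1472 ± 76.7 CPM, and P4hb from 565 ± 34.3 to 1448 ± 123 CPM. Of 13 procollagen proteases and cross-linking enzymes, 9 were higher and 3 lower (median log2 0.78). Adamts14, which trims procollagen, rose from 11.1 ± 1.14 to 38.5 ± 3.29 CPM. The cross-linking oxidases Loxl1 and Loxl2 rose by log2 1.79 ± 0.16 and 1.61 ± 0.13, while the enhancer protein Pcolce2 fell from 295 ± 23.2 to 54.5 ± 7.42 CPM (log2 -2.44 ± 0.19). Small leucine-rich proteoglycans, which set fibril diameter, changed in both directions: 4 of 14 rose and 6 fell (median log2 -0.49). These shares, 28.6% and 42.9%, compare with 29.4% and 28.3% of all genes tested. Biglycan (Bgn) rose from 2212, 2474, 1867 and 1890 CPM to 7734, 7752, 7154 and 7917 CPM (log2 1.86 ± 0.12), and lumican (Lum) from 419 ± 59.9 to 1956 ± 124 CPM. Osteomodulin (Omd), picked once its values were known, fell from 51.6 ± 13.4 to 9.25 ± 1.31 CPM, in the same direction as Dcn, Fmod and Chad.

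Matricellular and fibrillar glycoproteins of the matrix followed the collagens, with 21 of 31 higher and 3 (Tnxb, Comp and Fbln1) lower (median log2 1.53). Fibrillin 2 (Fbn2), the fibrillin of developing tissue, rose from 2.11 ± 0.428 to 172 ± 42.1 CPM (log2 6.34 ± 0.24), tenascin C (Tnc) from 138 ± 5.81 to 1727 ± 268 CPM (log2 3.64 ± 0.15), fibronectin (Fn1) from 3667 ± 241 to 12397 ± 1522 CPM (log2 1.76 ± 0.16) and Sparc from 5928 ± 704 to 14360 ± 755 CPM (log2 1.28 ± 0.11). Matrix-degrading enzymes and their inhibitors were also mostly higher, 19 of 26 against 4 lower (median log2 1.52). Adam12 rose from 2.64 ± 0.713 to 217 ± 42.2 CPM (log2 6.37 ± 0.22), the membrane collagenase Mmp14 from 141 ± 14.2 to 887 ± 65.3 CPM (log2 2.65 ± 0.13), Mmp19 from 14.5 ± 1.67 to 83.7 ± 16.5 CPM and Adamts12 from 20.4 ± 1.98 to 120 ± 16.6 CPM. Of members picked once their values were known, the collagenase Mmp13 went from 1.61 ± 0.348 to 74.4 ± 25.6 CPM, and the inhibitor Timp1 from 36.8 ± 19.1 to 354 ± 144 CPM.

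Basement membrane genes were mixed, with 9 of 19 higher and 6 lower (median log2 0.22). Their shares were 47.4% and 31.6%, against 29.4% and 28.3% of all genes tested. The laminin chain Lamb1 rose from 42.5 ± 2.47 to 400 ± 35.3 CPM (log2 3.23 ± 0.14), Col18a1 from 69.2 ± 6.87 to 292 ± 42.4 CPM and Lama4 from 130 ± 7.58 to 263 ± 9.77 CPM, whereas Col4a4 fell from 19.0 ± 0.965 to 3.78 ± 0.687 CPM. Of 16 genes of hyaluronan synthesis, turnover and binding, 9 rose and 4 fell (median log2 0.94). Aggrecan (Acan), the large proteoglycan of cartilage and of compressed tendon, held 7.18, 11.9, 9.39 and 6.81 CPM at rest and 847, 624, 373 and 818 CPM in Igf1r-targeted tendon (log2 6.23 ± 0.45, adjusted p = 6.15e-09). Control day 7 libraries stayed below all of these, at 172 to 259 CPM (direct difference log2 1.71 ± 0.37, adjusted p = 0.00676). The link protein Hapln4 rose from 0.247 ± 0.0675 to 2.91 ± 0.892 CPM, the hyaluronan receptor Hmmr, which also marks dividing cells, from 1.12 ± 0.207 to 17.9 ± 3.24 CPM, and the hyaluronidase Tmem2 from 27.1 ± 2.53 to 70.9 ± 10.9 CPM. Genes listed as receptors for collagen and fibronectin changed in both directions: 8 of 17 rose and 3 (Itga1, Itga2 and Itga10) fell, with a median log2 fold change of 0.12. Itga5, the fibronectin receptor chain, rose from 115 ± 8.72 to 278 ± 32.2 CPM, the collagen uptake receptor Mrc2 from 218 ± 9.17 to 532 ± 27.99 CPM and Itgb3 from 28.5 ± 2.09 to 47.9 ± 6.23 CPM. The list and its count of higher genes also include Endod1, an endonuclease domain gene and not such a receptor. Endod1 rose from 46.9 ± 6.54 to 94.7 ± 7.18 CPM.

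**Figure D4:**
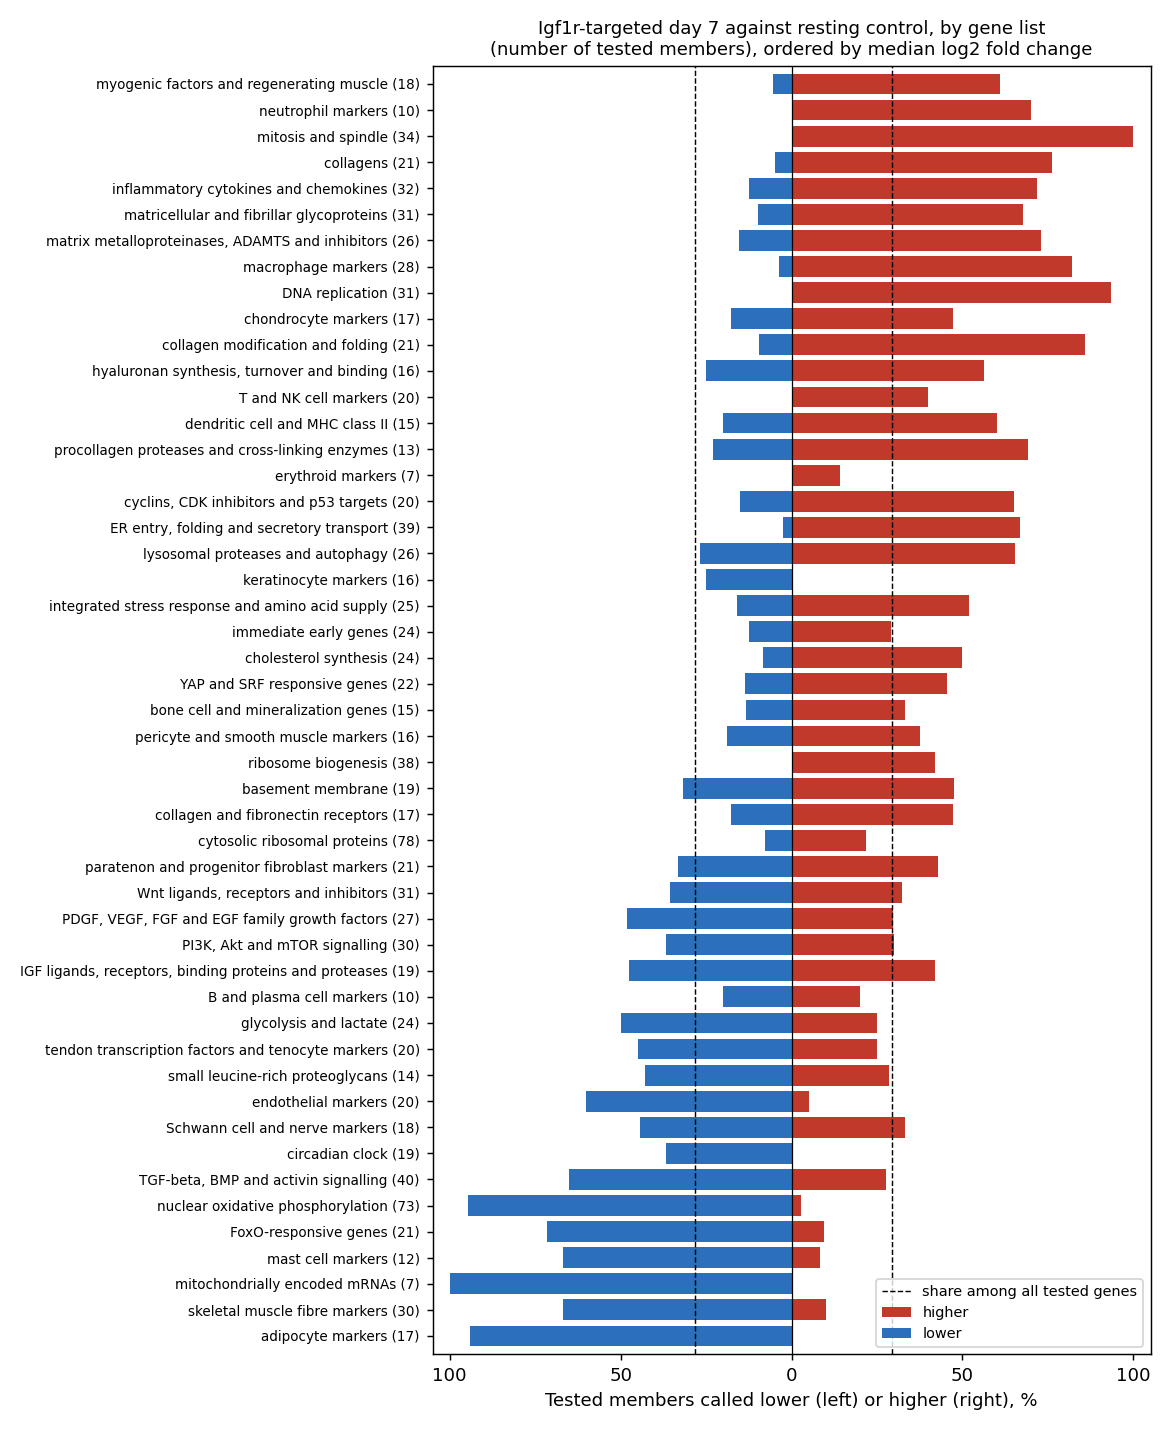
Percentage of the tested members of each gene list called lower (bars to the left) or higher (bars to the right) in Igf1r-targeted day 7 against resting control tendon, ordered by the list's median log2 fold change, with the number of tested members in parentheses. Dashed lines mark the shares among all genes tested, 28.3% lower and 29.4% higher. All 34 mitosis genes were higher, and 16 of 17 adipocyte markers were lower.

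Genes of TGF-beta signalling were mostly lower. Of 40 TGF-beta, BMP and activin genes, 26 fell and 11 rose (median log2 -0.73). Their shares were 65% and 27.5%, against 28.3% and 29.4% of all genes tested. Fstl1, which modulates BMP signalling, rose from 905 ± 52.0 to 3622 ± 63.5 CPM (4.0-fold). The signal transducer Smad3 fell from 191 ± 17.4 to 100 ± 9.97 CPM, the co-receptor Tgfbr3 from 498 ± 65.7 to 182 ± 13.3 CPM and the ligand Bmp4 from 43.6 ± 9.59 to 8.30 ± 1.69 CPM (log2 -2.40 ± 0.24). Grem1, Gdf5 and Bmp7 were picked once their values were known. The BMP inhibitor Grem1 went from 1.01 ± 0.221 to 7.69 ± 3.90 CPM, and Gdf5, a joint and tendon growth factor, from 9.84 ± 1.37 to 4.31 ± 0.710 CPM (log2 -1.19 ± 0.19). Gdf5 was nonetheless higher than in control day 7 tendon, which held 1.83 CPM on average (direct difference log2 1.23 ± 0.20, adjusted p = 0.000539). Bmp7, a ligand, went from 3.75 ± 0.858 to 0.376 ± 0.415 CPM (log2 -3.38 ± 0.58, and -4.34 without Igf1r-targeted replicate 2). Against control day 7, 12 of the 40 genes were higher (30%, against 9.39% of all genes tested) and 1, Bmpr2, was lower, and 10 to 13 were higher when 1 library was left out.

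Wnt genes were balanced, with 10 of 31 higher and 11 lower (median log2 -0.01, from -0.22 to 0.06 when 1 library was left out). Those shares were 32.3% and 35.5%, against 29.4% and 28.3% of all genes tested. The secreted inhibitor Sfrp1 rose from 52.5 ± 5.81 to 372 ± 115 CPM (log2 2.83 ± 0.23), while Sfrp5 fell from 2.74 ± 0.513 to 0.185 ± 0.0803 CPM, the receptor Fzd4 from 148 ± 15.9 to 57.4 ± 5.89 CPM and the ligand Wnt10b from 26.8 ± 2.41 to 4.96 ± 0.880 CPM. Wnt10b stayed above the control day 7 mean of 1.70 CPM (direct difference log2 1.54 ± 0.29, adjusted p = 0.00214). Genes responsive to YAP or SRF, regulators of mechanical and cytoskeletal signals, rose in 10 of 22 cases and fell in 3 (median log2 0.39). Smooth muscle actin (Acta2) rose from 85.6 ± 4.02 to 341 ± 69.7 CPM (log2 1.995 ± 0.20), Actn1 from 92.4 ± 6.39 to 296 ± 29.2 CPM, Flna from 668 ± 49.6 to 1393 ± 106 CPM and Vcl from 61.4 ± 5.01 to 127 ± 7.85 CPM. Of 27 genes listed under the PDGF, VEGF, FGF and EGF families, 8 rose and 13 fell (median log2 -0.04). Their shares were 29.6% and 48.1%, against 29.4% and 28.3% of all genes tested. Hgf, counted in this list though a member of none of these families, rose from 3.03, 3.24, 3.46 and 3.49 CPM to 9.26, 7.38, 8.26 and 9.70 CPM (log2 1.39 ± 0.17). Fgf1 fell from 28.5 ± 5.22 to 9.35 ± 0.801 CPM, Fgf2 from 95.7 ± 10.99 to 45.4 ± 4.05 CPM and Vegfb from 41.3 ± 13.3 to 16.0 ± 0.610 CPM.

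Genes of cell division rose throughout. All 34 genes of mitosis and the spindle were higher (median log2 3.28), as were 29 of 31 DNA replication genes, with 0 lower in both lists (median log2 1.33 for replication). Cdk1, the kinase that drives entry into mitosis, held 2.45, 2.59, 1.81 and 2.43 CPM at rest and 43.0, 33.8, 27.8 and 29.6 CPM in Igf1r-targeted tendon (log2 3.86 ± 0.25, adjusted p = 5.83e-10). The mitotic cyclin Ccnb2 rose by log2 3.82 ± 0.24, the kinase Plk1 by 3.30 ± 0.22 and the centromere histone Cenpa by 2.94 ± 0.16. Of the replication genes, the ribonucleotide reductase subunit Rrm2 rose from 5.82 ± 0.825 to 42.8 ± 5.76 CPM, and Gins2, Tyms and Mcm10 rose by log2 2.10 ± 0.18, 1.86 ± 0.16 and 1.91 ± 0.21. Among cyclins, CDK inhibitors and p53 targets, 13 of 20 rose and 3 (Cdkn1b, Rbl2 and Ccng1) fell (median log2 0.58). Ccne1 rose from 0.586 ± 0.139 to 8.45 ± 1.58 CPM, Cdk4 from 54.3 ± 1.37 to 125 ± 11.1 CPM and Cdk6 from 17.3 ± 3.45 to 47.8 ± 9.66 CPM, while the pocket protein Rbl2 fell from 63.5 ± 1.48 to 39.1 ± 1.01 CPM. Against control day 7, 0 replication genes were higher and 7 lower (22.6%, against 5.42% of all genes tested). When 1 library was left out, that count of 7 ranged from 0 (without control day 7 replicate 2 or Igf1r-targeted replicate 4) to 9 (without Igf1r-targeted replicate 1).

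Because the mitosis genes moved together, their promoters are shown. Promoters of late cell cycle genes are known to carry CCAAT boxes, bound by NF-Y, and the cell cycle homology region, bound by the DREAM complex or by B-MYB and FOXM1, whose core is TTTGAA. The sequences are from RefSeq (GRCm38.p6) and run from 250 bases before to 50 after the start of each gene, on the gene's own strand, with CCAAT and TTTGAA on either strand in capitals (ATTGG is CCAAT on the other strand). Cdk1 lies at chr10:69352863-69353162 (minus strand), Ccnb2 at chr9:70421505-70421804 (minus), Plk1 at chr7:122159185-122159484 (plus) and Ccnb1 at chr13:100786437-100786736 (minus).
Cdk1: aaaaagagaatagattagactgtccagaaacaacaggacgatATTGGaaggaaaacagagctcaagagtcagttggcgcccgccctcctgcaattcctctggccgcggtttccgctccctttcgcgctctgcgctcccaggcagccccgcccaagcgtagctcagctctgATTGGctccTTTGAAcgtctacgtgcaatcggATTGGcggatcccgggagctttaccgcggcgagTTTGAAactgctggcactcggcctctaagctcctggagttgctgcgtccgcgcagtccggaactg
Ccnb2: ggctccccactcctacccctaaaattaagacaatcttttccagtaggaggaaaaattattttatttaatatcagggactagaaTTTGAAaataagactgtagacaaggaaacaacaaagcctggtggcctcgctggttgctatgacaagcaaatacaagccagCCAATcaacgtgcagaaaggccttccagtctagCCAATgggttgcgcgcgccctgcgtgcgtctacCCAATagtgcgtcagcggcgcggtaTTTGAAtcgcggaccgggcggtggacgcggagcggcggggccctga
Plk1: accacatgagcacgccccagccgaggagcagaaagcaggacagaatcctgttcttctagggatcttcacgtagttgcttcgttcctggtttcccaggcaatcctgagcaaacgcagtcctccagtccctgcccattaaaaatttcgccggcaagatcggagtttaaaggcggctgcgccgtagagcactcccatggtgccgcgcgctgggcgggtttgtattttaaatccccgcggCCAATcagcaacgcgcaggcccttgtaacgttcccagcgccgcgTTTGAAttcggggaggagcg
Ccnb1: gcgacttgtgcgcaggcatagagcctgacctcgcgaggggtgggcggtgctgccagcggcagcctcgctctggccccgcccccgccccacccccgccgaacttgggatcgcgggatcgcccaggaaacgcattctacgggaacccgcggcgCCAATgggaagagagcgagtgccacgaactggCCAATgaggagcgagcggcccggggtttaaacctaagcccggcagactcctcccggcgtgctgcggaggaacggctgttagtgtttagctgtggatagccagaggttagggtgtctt
Cdk1 carried 3 CCAAT and 2 TTTGAA matches, Ccnb2 also 3 and 2, Plk1 1 and 1, and Ccnb1 2 and 0. RefSeq promoters were matched for 28 of the 34 mitosis genes, which gave 31 promoters. Of these, 80.6% held CCAAT, 77.4% TTTGAA and 67.7% both, compared with 37.4%, 17.9% and 6.95% of all 32851 promoters of the same length. Among 30 promoters of 26 DNA replication genes, the shares were 56.7%, 13.3% and 10%. Among 30 promoters of 24 skeletal muscle fibre genes, most of which fell, 43.3% held CCAAT and 0 held TTTGAA. The motifs do not overlap each other, and a match describes letters in the window and not binding.

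Ribosome biogenesis genes rose modestly: 16 of 38 (42.1%) were higher and 0 lower (median log2 0.26). Under 10 of the other settings, 1 or 2 were lower. Among all genes tested, 29.4% were higher and 28.3% lower. The 16 higher genes include Bop1, whose reads cannot be told apart from those of Scx. Npm1 rose from 72.3 ± 5.69 to 118 ± 16.3 CPM, Gnl3 from 36.2 ± 1.57 to 67.1 ± 7.35 CPM and Nhp2 from 17.1 ± 0.997 to 30.4 ± 5.09 CPM. Among 78 cytosolic ribosomal proteins, 17 were higher, 6 lower and 55 not called (21.8% higher and 7.69% lower, median log2 0.08). Both shares were below those of all genes tested. Rplp0 rose from 448 ± 16.1 to 627 ± 42.4 CPM, Rpl10a by log2 0.69 ± 0.11 and Rpl27 by 1.17 ± 0.16. Rpl3 (chr15:80077791-80091868, minus strand) went the other way. It held 35.4, 43.0, 34.9 and 35.1 CPM at rest and 12.1, 10.9, 11.5 and 10.3 CPM in Igf1r-targeted tendon (log2 -1.73 ± 0.30, adjusted p = 9.83e-05), while control day 7 libraries held 56.8, 62.4, 57.9 and 58.7 CPM (direct difference log2 -2.40 ± 0.31, adjusted p = 0.000136). Its pseudogene Rpl3-ps1 (chrX:13202571-13203780, plus strand), picked once its values were known, showed the reverse. It held 0.459, 0.195, 0.146 and 0.337 CPM at rest, 24.7, 23.5, 22.0 and 20.5 CPM in Igf1r-targeted tendon and 0.254 to 0.424 CPM in control day 7 tendon (log2 6.38 ± 0.30 against rest). Reads of the gene and its near-identical copy may have been divided differently in the libraries, so the level of Rpl3 is uncertain. Rpl35a and Rpl29, picked likewise, held 58.8 ± 6.50 and 35.6 ± 1.35 CPM at rest and 25.9 ± 7.22 and 12.1 ± 9.04 CPM in Igf1r-targeted tendon (log2 -1.18 ± 0.23 and -1.56 ± 0.44, the latter -2.23 without Igf1r-targeted replicate 4), with the same caution about copies.

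The secretory pathway rose: 26 of 39 genes of ER entry, folding and transport were higher and 1, Sar1b, was lower (median log2 0.58). Control day 7 tendon against rest gave 31 higher and 1 lower (median log2 0.73). Directly against control day 7, 2 of the 39 were higher and 7 lower. Those shares, 5.13% and 17.9%, compare with 9.39% and 5.42% of all genes tested. The retrieval receptors Kdelr2 and Kdelr3 rose from 101 ± 8.97 to 288 ± 18.2 CPM and from 59.4 ± 5.74 to 184 ± 16.9 CPM, the translocon subunit Sec61a1 from 161 ± 9.54 to 384 ± 25.1 CPM and Ssr2 from 69.3 ± 5.25 to 155 ± 18.2 CPM. Of 25 genes of the integrated stress response and amino acid supply, 13 rose and 4 (Atf5, Chac1, Slc1a5 and Vldlr) fell (median log2 0.47). Aldh18a1 and Pycr1, which make proline, the amino acid collagen is rich in, rose from 38.2 ± 3.49 to 136 ± 5.92 CPM (log2 1.83 ± 0.09) and from 11.3 ± 1.73 to 49.5 ± 4.90 CPM (log2 2.13 ± 0.13). The lipoprotein receptor Vldlr fell from 142 ± 47.7 to 13.2 ± 0.593 CPM.

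Respiratory chain genes fell. All 7 tested mitochondrially encoded mRNAs were lower (median log2 -2.43), as were 69 of 73 nuclear genes of oxidative phosphorylation (94.5%, median log2 -0.77), of which 2, Cox6a1 and Cox8a, were higher. mt-Co1, a core subunit of cytochrome oxidase, held 14079, 12029, 18892 and 21218 CPM at rest and 4370, 3949, 3541 and 4120 CPM in Igf1r-targeted tendon (log2 -2.05 ± 0.17, adjusted p = 1.05e-08). The log2 fold change was -2.30 ± 0.19 for mt-Cytb, -2.22 ± 0.17 for mt-Nd1, -2.48 ± 0.18 for mt-Nd4, -2.62 ± 0.20 for mt-Nd5 and -3.03 ± 0.18 for mt-Nd2. Of the nuclear genes, Ndufs7 fell from 99.95 ± 20.7 to 42.1 ± 1.84 CPM, Ndufa6 from 80.6 ± 11.9 to 42.0 ± 2.07 CPM and Ndufa13 from 102 ± 19.2 to 54.3 ± 1.47 CPM, and Cox6a1 rose from 71.5 ± 4.56 to 114 ± 7.32 CPM. The muscle share of counts fell beside these genes, and its part in their fall was not tested. Mitochondrial mRNA shares at day 7 overlapped between the Igf1r-targeted and control groups, 1.09 to 1.35% against 1.23 to 1.64% (exact permutation p = 0.257).

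Glycolysis and lactate genes were divided, with 6 of 24 higher and 12 lower (median log2 -0.42). Their shares were 25% and 50%, against 29.4% and 28.3% of all genes tested. Eno1, the widely expressed enolase, rose from 57.8 ± 3.23 to 204 ± 51.6 CPM, Pfkl from 24.8 ± 0.509 to 63.2 ± 10.8 CPM and Pgam1 from 2.30 ± 0.478 to 6.38 ± 1.36 CPM, while Ldhb fell from 29.9 ± 11.6 to 6.38 ± 1.59 CPM. Among 24 cholesterol synthesis genes, 12 were higher and 2 lower, Tm7sf2 and Sc5d (median log2 0.40). Ebp, a sterol isomerase of the pathway, rose from 28.8 ± 3.21 to 46.1 ± 2.83 CPM. Of 26 lysosomal protease and autophagy genes, 17 rose and 7 fell (median log2 0.57). The cathepsins led the rise: Ctss went from 124 ± 8.73 to 759 ± 79.8 CPM, Ctsb from 950 ± 19.2 to 2946 ± 453 CPM, Ctsh from 68.2 ± 4.09 to 177 ± 7.39 CPM and the asparaginyl protease Lgmn from 199 ± 13.9 to 786 ± 86.9 CPM.

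Of 24 immediate early genes, 7 rose and 3 (Klf4, Dusp1 and Btg2) fell (median log2 0.40). These shares, 29.2% and 12.5%, compare with 29.4% and 28.3% of all genes tested. Myc rose from 16.0 ± 0.332 to 37.4 ± 5.25 CPM, Fosl2 from 95.1 ± 2.35 to 192 ± 16.2 CPM and Nr4a2 from 24.5 ± 3.37 to 56.8 ± 13.2 CPM, and Klf4 fell from 254 ± 22.7 to 138 ± 20.8 CPM. Clock genes were lower in 7 of 19 cases (36.8%, against 28.3% of all genes tested) and higher in 0 (median log2 -0.58). Nr1d1, a repressor of the clock loop that cycles strongly over the day, held 315, 307, 264 and 339 CPM at rest, 126, 141, 141 and 159 CPM in Igf1r-targeted day 7 tendon and 43.1, 45.6, 66.8 and 72.1 CPM in control day 7 tendon. The 3 groups did not overlap (log2 -1.11 ± 0.19 against rest, adjusted p = 5e-05, and 1.32 ± 0.19 against control day 7, adjusted p = 0.000264). Cry2 fell from 133 ± 4.78 to 68.3 ± 6.55 CPM and Rora from 122 ± 7.01 to 76.4 ± 4.76 CPM. Dbp, picked once its values were known, held 74.8 ± 11.8 CPM at rest and 58.7 ± 16.4 CPM in Igf1r-targeted tendon, a difference that did not pass the test, against 17.9 CPM in control day 7 tendon (direct difference log2 1.71 ± 0.38, adjusted p = 0.00878). Of the 19 clock genes, 11 were higher than in control day 7 tendon (57.9%, against 9.39% of all genes tested) and 0 lower, and 5 (without control day 7 replicate 2) to 11 were higher when 1 library was left out. The labels give no time of day for the collections.

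Markers of inflammation rose. Of 32 cytokines and chemokines tested, 23 were higher and 4 (Csf1, Il34, Ccl11 and Cx3cl1) lower (median log2 2.02). Il1rn, which blocks interleukin 1 signalling, rose from 1.30 ± 0.622 to 19.0 ± 4.05 CPM (log2 3.85 ± 0.35), Il10 from 0.124 ± 0.0524 to 2.62 ± 1.71 CPM and the stromal chemokine Cxcl12 from 299 ± 17.97 to 522 ± 36.0 CPM, while the eotaxin Ccl11 fell from 18.8 ± 4.13 to 5.56 ± 0.549 CPM. Il1b and Il6, picked once their values were known, went from 1.49 ± 1.31 to 19.1 ± 5.03 CPM and from 0.240 ± 0.171 to 4.45 ± 2.69 CPM.

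Macrophage markers were higher in 23 of 28 cases (82.1%) and lower in 1 (median log2 1.33), and the list's share of counts went from 0.275 to 0.352% at rest to 0.584 to 0.848%. Trem2, a lipid-sensing receptor of tissue macrophages, held 20.4, 23.5, 20.5 and 19.2 CPM at rest and 87.4, 130, 106 and 97.7 CPM in Igf1r-targeted tendon (log2 2.33 ± 0.14, adjusted p = 1.04e-10). Ms4a7 rose from 14.4 ± 1.75 to 96.5 ± 2.85 CPM, Cd84 from 11.8 ± 1.74 to 51.9 ± 10.9 CPM, Cd68 from 57.1 ± 1.59 to 229 ± 29.7 CPM, Adgre1 from 65.7 ± 5.16 to 184 ± 37.1 CPM and Csf1r from 393 ± 22.4 to 625 ± 111 CPM. The exception was Timd4, a marker of resident macrophages, which fell from 5.54 ± 0.793 to 0.336 ± 0.138 CPM (log2 -4.06 ± 0.46) and was picked once its values were known. The alternative activation marker Arg1, picked likewise, went from 0.461 ± 0.223 to 10.1 ± 9.61 CPM (log2 4.45 ± 0.75, and 3.71 without Igf1r-targeted replicate 1).

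Neutrophil markers were at low levels: 7 of 10 tested were higher and 0 lower (median log2 3.52). Csf3r rose from 4.47 ± 0.573 to 52.2 ± 12.1 CPM, S100a9 from 0.527 ± 0.273 to 21.1 ± 11.3 CPM, S100a8 from 1.04 ± 0.103 to 11.7 ± 5.93 CPM and Cxcr2 from 0.204 ± 0.0672 to 7.34 ± 3.73 CPM. Mast cell markers fell in 8 of 12 cases and 1, Hdc, rose (median log2 -1.23). Cpa3, the mast cell carboxypeptidase, held 13.3, 13.1, 12.6 and 14.2 CPM at rest and 3.09, 4.99, 12.6 and 4.10 CPM in Igf1r-targeted tendon, where replicate 3 was at the resting level (log2 -1.10 ± 0.36, and -1.71 without that replicate). The receptors Mrgprb1 and Mrgprb2 fell (log2 -1.83 ± 0.34 and -2.73 ± 0.39), as did Ms4a2 (-2.11 ± 0.39, and -2.70 without Igf1r-targeted replicate 3), Gata2 (-1.27 ± 0.19) and Mcpt4 (-1.33 ± 0.34), and Cma1 did not pass the test (log2 -0.68 ± 0.29, adjusted p = 0.0503).

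Lymphocyte markers were sparse. Of 20 T and NK cell genes, 8 rose and 0 fell (median log2 0.80), among them Cd4 from 2.43 ± 0.795 to 18.1 ± 3.001 CPM and Thy1, also a fibroblast gene, from 132 ± 15.9 to 197 ± 16.0 CPM. The T cell receptor component Cd3e was at 0.707 ± 0.180 and 0.387 ± 0.241 CPM and did not pass the test. The cytotoxic genes Gzmb, Ncr1 and Nkg7 were sparse, at 3.40 ± 3.82, 0.785 ± 0.754 and 0.954 ± 0.846 CPM in Igf1r-targeted tendon, with log2 fold changes of 5.66 ± 1.03 and 2.70 ± 0.72 for Gzmb and Nkg7 (4.52 and 1.89 without Igf1r-targeted replicate 4). Ncr1 had 3 counts at rest and 178 in Igf1r-targeted tendon, a ratio of depth-scaled counts of 49.995 (95% interval 16.8 to 245). B and plasma cell genes went 2 up and 2 down among 10 tested, 20% each, below the 29.4% and 28.3% of all genes tested. Cd22 rose from 0.211 ± 0.0343 to 7.20 ± 1.06 CPM and Cd79b from 0.606 ± 0.164 to 1.92 ± 0.627 CPM, while Ighm fell from 135 ± 32.4 to 23.7 ± 7.76 CPM and Tnfrsf17 from 1.15 ± 0.250 to 0.271 ± 0.161 CPM. That list's median was -0.17 and ranged from -0.79 (without Igf1r-targeted replicate 4) to 0.09 (without Igf1r-targeted replicate 1), and Cd79a, part of the B cell receptor, was at 0.271 ± 0.0833 and 0.231 ± 0.185 CPM and did not pass the test. Among 15 dendritic cell and MHC class II genes, 9 were higher and 3 lower, Zbtb46, Clec9a and Batf3 (median log2 0.78). H2-Eb1 rose from 163 ± 36.0 to 352 ± 72.5 CPM, Ciita, the switch for class II genes, from 10.7 ± 1.86 to 29.6 ± 7.33 CPM and Irf8 from 18.8 ± 2.27 to 52.6 ± 10.04 CPM, while Zbtb46 fell from 14.3 ± 1.18 to 8.54 ± 0.973 CPM.

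Genes of mature muscle fell while genes of forming muscle rose. Of 30 fibre markers, 20 were lower and 3, the slow troponins Tnnc1, Tnni1 and Tnnt1, were higher (median log2 -2.63). The fast myosin Myh4 held 12871, 7838, 16894 and 14668 CPM at rest and 188, 309, 793 and 737 CPM in Igf1r-targeted tendon (log2 -4.69 ± 0.99, adjusted p = 0.000704). The log2 fold change was -4.80 ± 0.85 for the calcium buffer Pvalb, -3.24 ± 0.88 for creatine kinase (Ckm), -3.42 ± 0.79 for Tnni2, -3.23 ± 0.76 for Tnnt3 and -5.43 ± 0.84 for the slow light chain Myl3 (-4.33 without resting replicate 4). Skeletal actin (Acta1) was at 7011 ± 3180 and 2549 ± 1141 CPM and did not pass the test (log2 -1.46 ± 0.78, adjusted p = 0.123). Of 18 myogenic and regeneration genes, 11 were higher and 1, Musk, was lower (median log2 3.90). The adhesion molecule Ncam1 rose from 21.8 ± 1.29 to 55.3 ± 12.1 CPM beside Mymk, Chrng and Tnnt2. How much muscle came with each dissected tendon is not given in the labels.

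Fat cell markers fell nearly throughout, with 16 of 17 lower and 0 higher (median log2 -2.87). Adiponectin (Adipoq) held 198, 123, 126 and 127 CPM at rest and 14.6, 29.4, 16.1 and 7.21 CPM in Igf1r-targeted tendon (log2 -3.10 ± 0.46, adjusted p = 2.29e-05). Scd1 fell from 2412 ± 597 to 237 ± 58.6 CPM, Fabp4 from 394 ± 85.9 to 79.8 ± 32.5 CPM, Plin1 from 106 ± 28.1 to 11.2 ± 5.77 CPM, and the lipases Pnpla2 and Lipe and the triglyceride enzyme Dgat2 fell as well (log2 -1.59 ± 0.17, -1.99 ± 0.25 and -2.33 ± 0.27). Endothelial genes were lower in 12 of 20 cases and 1, Eng, was higher (median log2 -0.54). Cldn5 fell from 40.6 ± 5.83 to 13.1 ± 2.497 CPM, Tek from 69.0 ± 6.03 to 34.7 ± 4.28 CPM, Kdr from 73.6 ± 11.3 to 41.3 ± 4.79 CPM and Prox1, a lymphatic regulator, from 14.5 ± 1.49 to 6.20 ± 1.83 CPM. The pan-endothelial genes Pecam1 (136 ± 5.58 and 130 ± 14.8 CPM) and Cdh5 (81.6 ± 16.6 and 92.6 ± 15.6 CPM) did not pass the test.

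Of 16 pericyte and smooth muscle genes, 6 rose and 3 fell (median log2 0.27). Their shares were 37.5% and 18.8%, against 29.4% and 28.3% of all genes tested. Cnn1 rose from 0.795 ± 0.311 to 4.28 ± 2.29 CPM beside Acta2, and Lmod1 and Abcc9 fell from 17.5 ± 5.63 to 3.28 ± 0.631 CPM and from 110 ± 27.3 to 40.2 ± 8.78 CPM, whereas Rgs5 and Myh11 did not pass the test. Among 18 Schwann cell and nerve genes, 8 were lower and 6 higher, the latter 3 without Igf1r-targeted replicate 2 (median log2 -0.56). The 44.4% lower and 33.3% higher compare with 28.3% and 29.4% of all genes tested. Mbp, a myelin protein, fell from 37.2 ± 2.77 to 17.8 ± 1.33 CPM, Cdh19 from 4.47 ± 0.869 to 0.617 ± 0.129 CPM and Sox10 from 3.15 ± 0.976 to 0.697 ± 0.0433 CPM. Paratenon and progenitor fibroblast genes went both ways, 9 of 21 higher and 7 lower (median log2 0.06). Their shares were 42.9% and 33.3%, against 29.4% and 28.3% of all genes tested. Pcsk5 rose from 22.0 ± 0.475 to 150 ± 46.2 CPM, Mfap5 from 131 ± 6.44 to 413 ± 27.99 CPM and Fap, a protease of activated fibroblasts, from 24.4 ± 3.03 to 78.1 ± 8.36 CPM. The leptin receptor Lepr fell from 290, 404, 260 and 240 CPM to 7.54, 11.8, 14.3 and 11.1 CPM (log2 -4.74 ± 0.31, adjusted p = 1.4e-09).

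Cartilage genes included some of the strongest differences between the day 7 groups. Of 17 tested chondrocyte genes, 8 were higher than at rest and 3 (Sox5, Sox6 and Chad) lower, and the median log2 fold change of 1.25 ranged from 0.69 without Igf1r-targeted replicate 4 to 2.33 without resting replicate 2. Col2a1 (chr15:97975602-98004695, minus strand), the cartilage collagen, held 1.74, 3.03, 2.69 and 2.65 CPM at rest, 59.4, 223, 108 and 183 CPM in Igf1r-targeted tendon and 4.62, 1.34, 1.45 and 1.48 CPM in control day 7 tendon. The Igf1r-targeted libraries lay above all others (log2 5.81 ± 1.03 against rest, adjusted p = 0.000144, and 5.99 ± 1.03 against control day 7, adjusted p = 0.00173, or 6.66 without control day 7 replicate 1). Without Igf1r-targeted replicate 2, Col2a1 was at log2 5.525 against rest and 5.712 against control day 7. The regulator Sox9 rose from 10.6, 10.2, 9.83 and 7.68 CPM to 57.5, 48.6, 30.4 and 51.0 CPM (log2 2.29 ± 0.32), and Matn3 from 0.560 ± 0.181 to 8.80 ± 4.25 CPM. Col9a2, Col9a3 and Hapln1, picked once their values were known, went from 0.124 ± 0.0835, 1.44 ± 0.397 and 4.77 ± 1.66 CPM to 2.498 ± 1.11, 11.7 ± 6.08 and 46.5 ± 9.37 CPM, while Col9a1, also of type IX collagen, was at 8.88 ± 3.10 and 6.18 ± 3.10 CPM and did not pass the test. Against control day 7, 8 of the 17 genes were higher (47.1%, against 9.39% of all genes tested) and 0 lower, and 3 (without control day 7 replicate 2, 3 or 4) to 8 were higher when 1 library was left out.

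Among 15 bone and mineralization genes, 5 were higher and 2 lower, Phex and Ank (33.3% and 13.3%, against 29.4% and 28.3% of all genes tested). The list's median (log2 0.37) was below 0 without any of 6 single libraries, ranging from -0.41 (without resting replicate 4) to 0.83 (without resting replicate 2). The number lower was 4 without resting replicate 4. The osteoclast protease Ctsk rose from 162 ± 12.8 to 612 ± 181 CPM, Enpp1 from 105.03 ± 25.4 to 250 ± 42.9 CPM and Ocstamp from 0.359 ± 0.237 to 4.98 ± 5.94 CPM (log2 3.86 ± 0.68, and 2.56 without Igf1r-targeted replicate 1). The pyrophosphate transporter Ank fell from 236 ± 17.1 to 107 ± 15.6 CPM, and the osteoblast genes Sp7 and Ibsp did not pass the test (adjusted p = 0.633 and 0.0646). Among 16 keratinocyte genes, 4 were lower (Krt2, Krt15, Krt79 and Lor) and 0 higher. The share lower, 25%, compares with 28.3% of all genes tested. The list's median of 0.54 was -3.73 without Igf1r-targeted replicate 2, where 13 of the 16 were lower. Krt5 held 3.36, 5.76, 1.71 and 32.5 CPM at rest and 0.0775, 117, 1.80 and 0 CPM in Igf1r-targeted tendon, and its log2 value of 1.45, which did not pass the test, became -4.13 (adjusted p = 0.0315) without replicate 2. Krt15 and Krt79 fell (log2 -4.20 ± 1.14 and -3.11 ± 0.76, or -7.38 and -4.60 without that library, and -2.90 for Krt15 without resting replicate 4), and the call of Lor was lost without any of 5 single libraries. Krt2 moved in the same way, from -10.80 to -12.27 without Igf1r-targeted replicate 2 and to -9.07 without resting replicate 4, and Mrgprg from -10.39 to -9.78 without the latter. Of 7 erythroid genes, 1 (Slc4a1) was higher and 0 lower, and its call was lost without any of 4 single libraries. The globins Hbb-bs (103 ± 36.5 and 132 ± 79.5 CPM) and Hba-a1 did not pass the test.

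The direct comparison with control day 7 tendon, in which stimulus and tamoxifen were the same, called 2802 genes (14.8%), 1777 higher (9.39%) and 1025 lower (5.42%) in Igf1r-targeted tendon. Of these, 562 (2.97%) were at least 2-fold higher and 143 (0.756%) at least 2-fold lower. Control day 7 against resting tendon called 12133 genes (64.1%). The totals fell to 1440 without control day 7 replicate 2 and to 1504 without Igf1r-targeted replicate 4. The comparisons with rest share the resting libraries, so their values are only set side by side. Among genes also called against rest, with at least 5 CPM in the higher day 7 group, no overlap, and predicted genes and pseudogenes left out, the 12 with the largest difference between the day 7 groups were Fabp2, Hal, Col2a1, Susd5, Meltf, Pvalb, Scx, Mettl21c, Tuba8, Smtnl1, Eef1a2 and Pianp, and all 12 were higher in the Igf1r-targeted libraries. The pseudogene Rpl3-ps1, left out by that rule, differed by log2 6.04 ± 0.29. Fabp2 and Hal differed by log2 8.38 ± 0.52 and 7.87 ± 1.15 (adjusted p = 6.05e-09 and 0.000527). Susd5, a membrane protein, held 4.04, 7.24, 4.08 and 3.85 CPM at rest, 12.3, 26.8, 13.7 and 15.7 CPM in Igf1r-targeted tendon and 1.02, 0.542, 0.601 and 0.837 CPM in control day 7 tendon (direct difference log2 4.50 ± 0.51, adjusted p = 4.66e-05). Meltf, an iron-binding transferrin relative, held 2.46 to 7.78 CPM at rest, 14.3 to 46.4 CPM in Igf1r-targeted tendon and 0.354 to 2.45 CPM in control day 7 tendon (4.45 ± 0.74). Both genes were thus on opposite sides of the resting level at day 7. Pianp held 75.3, 9.27, 45.4 and 36.9 CPM in Igf1r-targeted tendon, against 3.10 to 4.59 CPM at rest and 2.83 to 5.28 CPM in control day 7 tendon (direct difference log2 3.50 ± 0.68).

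The other 5 of these genes are genes of skeletal muscle or abundant in it, and in them the Igf1r-targeted libraries lay between rest and control day 7. Pvalb held 2070, 1258, 2885 and 2730 CPM at rest, 60.9, 47.4, 100.4 and 113 CPM in Igf1r-targeted tendon and 6.75, 5.88, 1.80 and 7.36 CPM in control day 7 tendon (direct difference log2 3.89 ± 0.82, adjusted p = 0.00648). Mettl21c, Tuba8, Smtnl1 and Eef1a2 differed by log2 3.85 ± 0.86, 3.70 ± 0.70, 3.59 ± 0.67 and 3.59 ± 0.89 (adjusted p = 0.00926, 0.00334, 0.00305 and 0.0152). The call of Mettl21c was lost by limma-voom (adjusted p = 0.0664). Of the 30 muscle fibre markers, 20 were higher (66.7%, against 9.39% of all genes tested) and 0 lower than in control day 7 tendon, and 4 (without Igf1r-targeted replicate 4) to 16 were higher when 1 library was left out. The summed muscle share was 1.11% ± 0.427 against 0.206% ± 0.115 (exact two-sided permutation p = 0.0286, adjusted 0.0343). The part of muscle RNA in other differences between the day 7 groups was not tested.

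**Figure D5:**
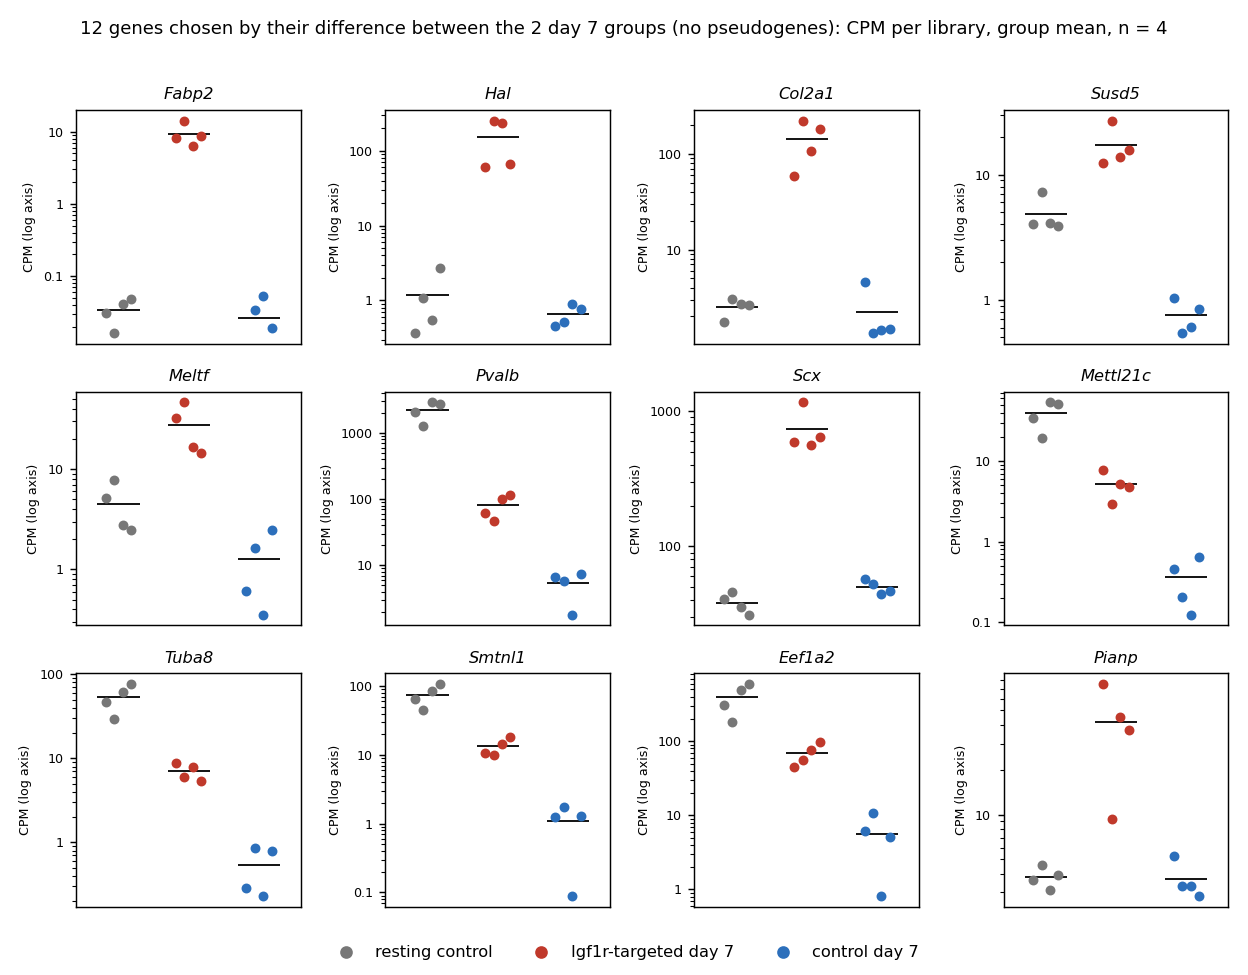
CPM per library (points, log axis, 1 panel per gene) of the 12 genes with the largest difference between Igf1r-targeted and control day 7 tendon among those called against rest too, pseudogenes and predicted genes left out, with resting control tendon beside them and the mean of 4 libraries as a line. A library at 0 (Fabp2 in control day 7 replicate 1) has no point. In each panel all 4 Igf1r-targeted libraries lie above all 4 control day 7 libraries, and in the muscle genes, such as Pvalb, they lie below the resting libraries.

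Beyond these 12 genes, basement membrane genes were higher than in control day 7 tendon in 9 of 19 cases and lower in 0 (4 to 9 higher when 1 library was left out, fewest without control day 7 replicate 2). Over all genes tested, 9.39% were higher and 5.42% lower in this direct comparison. Mast cell genes were lower in 6 of 12 cases (from 1 without Igf1r-targeted replicate 4 to 10 without its replicate 3). Class II and dendritic cell genes were higher in 6 of 15 cases and lower in 1 (1 to 6 higher when 1 library was left out, fewest without Igf1r-targeted replicate 2). Keratinocyte genes were higher in 6 of 16 cases, from 0 without Igf1r-targeted replicate 2 or control day 7 replicate 2 to 9 without Igf1r-targeted replicate 1. Single genes with differences kept in every library left out included Itgb3 (log2 0.61 ± 0.10, adjusted p = 0.000716), Mmp14 (0.59 ± 0.12, adjusted p = 0.00461), Ank (0.66 ± 0.12, adjusted p = 0.00134), Klf4 (0.99 ± 0.19, adjusted p = 0.0025) and Ctsh (-0.59 ± 0.09, adjusted p = 0.000527).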

How the data were processed

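RNA of plantaris tendon was sequenced in 20 libraries of 5 groups of 4, and the 8 libraries described here were taken by their titles. The deposited table holds whole-number read counts for 24885 genes, and every gene in it has a row sum of at least 21. Reads were processed by the authors with FastQC, STAR and edgeR on mm10, per the submitters' processing notes; tool versions, read counter, gene annotation and strandedness were not given in the sources used here. The authors' deposited table for this comparison gives log2 fold changes and p-values with false discovery rates, and was used only for the counts of calls credited to it. Gene positions are those of the deposited table or of GENCODE vM21 (GRCm38).

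Counts were filtered with filterByExpr (18918 genes kept), scaled by TMM and fitted with edgeR 4.0.16 (robust quasi-likelihood F test, R 4.3.3) on all 20 libraries with 1 mean per group. Calls are at a Benjamini-Hochberg adjusted p below 0.05, and SE is the log2 fold change divided by the square root of F. CPM values are TMM-scaled. Shares of counts and 3 genes were compared by exact two-sided permutation tests. Intervals of count ratios are at 95% and cover counting error only. The script was tested on simulated data. Alternatives were DESeq2 1.42.0, limma 3.58.1 (voom), other scalings and filters, the 2 groups alone, a replicate block and each library left out.

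The comparison was proposed, and the genes to describe and the 49 gene lists were chosen, with earlier results of these data known; the 8 libraries themselves follow from their titles. Genes were named by rule: Igf1r, Scx and Bop1; 12 higher and 12 lower with the largest fold change (at least 5 CPM in the higher group, no overlap, predicted, unnamed and pseudogene symbols left out); 8 with the largest gain and 8 with the largest loss in mean CPM; 12 with the largest difference from control day 7 among genes called in both comparisons, under the same limits; 4 per list by smallest p (2 where none was called); and defining markers. Others are said to be picked once their values were known. In the lists, 8 genes were not matched. Some genes that the rule names are not reported here. No 2 libraries were near-duplicates (chi-square over its degrees of freedom at least 15.39).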

Additional observations from a re-analysis of the deposited data

Results flagged for a closer look

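The libraries named here lay far from the other 3 of their group: the gap to the nearest library, divided by the range of the group, exceeded Dixon's 95% critical value for 4 samples. Of 568 groups of 4 tested, 34 (5.99%) were flagged, and chance flags about 1 in 20, so the number of flags is near that of chance. No resting Igf1r-targeted group was analysed here, so a difference of the stimulus effect between genotypes was not tested.

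In Igf1r-targeted day 7 replicate 2, keratinocyte genes were high, with ratios of 0.985 for Krt5 (117 CPM against 1.80 in the nearest library), 0.988 for Krt14 (376 against 4.72), 0.984 for Krt10 (78.3 against 4.59), 0.979 for Krt15 (1.57 against 0.0504) and 0.94 for Lor (3.43 against 0.278). Krt2 gave 1, from 0.0248 CPM against 0. The same library was high in Scx (0.862, 1153 against 639 CPM) and low in Mrgprg (0.835, 0 against 0.0155 CPM). Resting replicate 4 was high in the skin genes Krt2 (0.831, 39.9 against 8.08 CPM) and Krt5 (0.868, 32.5 against 5.76 CPM).

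Of the other Igf1r-targeted libraries, replicate 1 was low in Comp (0.992, 1707 against 2624 CPM), Pecam1 (0.882, 107 against 135 CPM) and Bcl6 (0.858, 36.3 against 45.8 CPM). It was high in Cdk4 (0.865, 142 against 121 CPM) and Ocstamp (0.907, 13.8 against 2.51 CPM). Replicate 3 was high in the mast cell genes Mrgprb2 (0.947, 0.613 against 0.224 CPM) and Mcpt4 (0.869, 15.7 against 6.21 CPM) and in Sox10 (0.871, 0.761 against 0.682 CPM), and low in Hapln1 (0.87, 32.6 against 49.5 CPM). Replicate 4 was low in Csf3r (0.903, 34.1 against 57.1 CPM) and high in Rpl29 (0.899, 25.6 against 8.56 CPM).

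Among resting libraries, replicate 2 was high in Fn1 (0.88, 4027 against 3576 CPM), Susd5 (0.932, 7.24 against 4.08 CPM), Rpl3 (0.935, 43.0 against 35.4 CPM), Ctsh (0.841, 74.2 against 66.7 CPM), Ctsk (0.906, 181 against 157 CPM) and Sp7 (0.924, 2.98 against 0.583 CPM), and low in Aqp4 (0.914, 7.08 against 12.7 CPM). Replicate 3 was low in Hapln4 (0.904, 0.146 against 0.275 CPM), Hmmr (0.85, 0.812 against 1.19 CPM) and Cxcr2 (0.88, 0.104 against 0.228 CPM). Replicate 4 was low in Sfrp1 (0.916, 43.8 against 54.8 CPM), and replicate 1 was high in Adipoq (0.947, 198 against 127 CPM). Control day 7 replicate 1 was high in Col2a1 (0.956, 4.62 against 1.48 CPM).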

How the results depend on the processing

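Against rest, the number of genes called stayed within 1.5 times of 10917 under each alternative run, from 9632 (at least 1 CPM in at least 4 libraries) to 11317 (no filter on low counts), with 11082 by DESeq2 and 11036 by limma-voom. With the replicate block it was 11032. Deviations of same-numbered libraries were only weakly correlated (0.049, 0.167, 0.106 and 0.015), although 3 of 4 Igf1r-targeted libraries correlated best with their own number. Whether numbers 1 to 4 pair the libraries cannot be told from these values. Against control day 7 the counts moved more. Leaving out 1 library gave 1440 to 2659 genes called, 1027 to 1761 higher, 413 to 898 lower, 327 to 621 at least 2-fold higher and 87 to 195 at least 2-fold lower, and the stricter filter gave 86 at least 2-fold lower against 143. The replicate block gave 3141. Over the single genes named, 5819 values kept direction and call, 210 lost the call, 16 gained it and 10 changed sign. None of the genes that changed sign was called against rest in the fit reported above, but Krt5 was called lower by limma-voom (adjusted p = 0.0439) and, without Igf1r-targeted replicate 2, Krt5 and Krt10 were called lower (adjusted p = 0.0315 and 0.000936). By limma-voom, Krt5, Krt14 and Krt10 were at -3.787, -1.635 and -0.774. With 1 library left out they ranged from -4.128 to 3.022, from -2.531 to 4.348 and from -1.970 to 1.252, the lowest always without Igf1r-targeted replicate 2. Cd79a ranged from -0.920 to 0.073 (0.009 without Igf1r-targeted replicate 2), Pecam1 from -0.099 to 0.018 and Sp7 from -0.759 to 0.834. The cause was not tested. Depth limits genes with few counts, such as Cd79a.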
